A study of Mus musculus with 4 samples.

Results

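The cytosolic ribosome of the mouse is built from a small subunit, which decodes the mRNA, and a large subunit, which joins amino acids, and each holds a set of ribosomal proteins named Rps and Rpl. Here the genes for these proteins were taken from a table of 53465 genes by their annotation as protein coding and by their name (Rpl or Rps with a number and at most 1 letter, Rplp0 to Rplp2, and Rpsa). Paralogues (*Rpl10l*, *Rpl39l*, *Rpl3l*, *Rps27l* and *Rps4l*) were left out. The rule gave 76 genes, 46 of the large and 30 of the small subunit, and all 76 passed the filter on low values that left 20116 genes for testing. They lie on 19 chromosomes, with 14 on chromosome 7 and 4 on the X chromosome.

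The libraries were long RNA-seq libraries of cultured mouse female germline stem cells (FGSCs), labelled as germ stem cells of the ovary. The cells carried either a control short hairpin RNA (shNC, 2 libraries) or a hairpin against *Nat10* (shNAT10, 2 libraries), delivered by lentivirus and followed by antibiotic selection. *Nat10* encodes N-acetyltransferase 10, the enzyme that writes N4-acetylcytidine (ac4C) into RNA, including ribosomal RNA. The study states that groups held biological replicates but the labels do not say what separated the cultures, so the spread between libraries may be partly technical.

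*Nat10* had 7.79 and 5.42 FPKM (fragments scaled by transcript length and by a divisor for each library) in shNC and 2.95 and 3.04 FPKM in shNAT10. The depth recovered from the values was 11057918 to 14902420 fragments a library, highest in shNC replicate 1 and lowest in shNAT10 replicate 1. The divisors did not follow this depth, at 1.17e+07 and 1.19e+07 in shNC against 1.26e+07 and 1.53e+07 in shNAT10. Median-ratio rescaling gave all 4 libraries the same factor, 1.00441, so by that measure the deposited values were already level between libraries. Directions are read on this deposited scale unless another is named. Loci related to ribosomal RNA (for example *Gm26917* and *Gm42418*) held 45.4% and 35.1% of fragments in the controls but 23.2% and 25.1% in shNAT10. Of 6 germline markers, *Dazl*, *Pou5f1* and *Dppa3* were at 0 in all 4 libraries, *Ddx4* had 2 fragments in all, and only *Ifitm3* was above 1 FPKM. The germline sum, nearly all of it *Ifitm3*, was 9.38 and 22.3 FPKM in the controls against 27.3 and 33.6 in shNAT10. All 5 pan-leukocyte markers were detected, and their sum was 443 and 493 FPKM in the controls against 363 and 384 in shNAT10. *Cd53*, *Laptm5* and *Lcp1* were lower in both shNAT10 libraries, while *Ptprc* was at 15.5 and 15.4 FPKM in the controls against 15.3 and 15.3 in shNAT10 and *Coro1a* overlapped. The 6 mast cell markers summed to between 288 and 308 FPKM, with *Fcer1a* and *Tpsb2* at 0. Of them *Cpa3*, the largest part of the sum, had 245 and 262 FPKM in shNC against 272 and 267 in shNAT10. *Gata2* had 41.5 and 38.6 FPKM in shNC but 31.9 and 31.6 in shNAT10, and *Ms4a2* 0.938 and 0.539 but 3.77 and 3.13. *Hdc* had 0.160 and 0.0923 FPKM in shNC against 0.0748 and 0.0408 in shNAT10. The 5 fibroblast markers summed to 53.4 and 46.7 FPKM in the controls against 63.9 and 53.9 in shNAT10. Among them *Pdgfra* had 6.74 and 5.08 FPKM in shNC but 10.8 and 10.2 in shNAT10, and *Thy1* 2.42 and 2.42 but 4.36 and 3.99. *Dcn*, the largest part of the sum, overlapped between the groups, as did *Col1a1* and *Col1a2*. The 5 granulosa cell markers summed to at most 0.485 FPKM, with *Foxl2* and *Fshr* at 0. In these libraries the germline markers other than *Ifitm3* were thus at or near 0, against the label. The study characterised its FGSCs by RT-PCR and immunofluorescence of germ cell markers, which are not analysed here. The ribosomal RNA share and the germline and leukocyte sums differed between the groups in the same libraries as the ribosomal protein genes. So did the fibroblast markers *Pdgfra* and *Thy1* and the mast cell markers *Cpa3*, *Gata2*, *Hdc* and *Ms4a2*. The fibroblast sum separated the groups only narrowly (53.4 against 53.9 FPKM at the nearest). The part of these differences in the results was not tested.

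Ribosomal protein genes are transcribed at high and coordinated rates in growing cells. Their mRNAs usually begin with a cytosine followed by a run of pyrimidines, the terminal oligopyrimidine tract, through which mTOR signalling controls their translation. The mammalian genome also holds many processed pseudogenes of these genes, which are copies of the mRNA set back into the genome, so that fragments of the mRNA can match several places.

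The start of the genes is shown first, because the tract is the sequence feature that links both subunits. RefSeq promoter entries (GRCm38.p6) were found for 56 of the 76 genes. A tract was counted where a C followed by at least 7 bases that were each C or T lay on the gene's strand between 50 bases before and 50 bases after the start. At least 1 promoter with such a tract was found for 48 of the 56 genes (85.7%), 31 of 34 of the large and 17 of 22 of the small subunit. Of all genes with a promoter entry 32.0% had one. On the opposite strand 14 of 66 ribosomal protein promoters held the same run, or 21.2%, against 31.6% of all promoters. The stretches below are from genes called lower in shNAT10 (*Rpl10*, *Rps26*, *Rps12*, *Rps6* and *Rps9*) and from genes at the other end of the order (*Rps10* and *Rpl35*), with the tract in capitals. For *Rpl10* the last 30 bases of the window, from base 21 to base 50 after the start, are given, where the tract begins at base 42 and reaches the end of the window. The others run from 30 bases before to 30 bases after the start.
Rpl10: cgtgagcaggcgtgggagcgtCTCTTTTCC
Rps26: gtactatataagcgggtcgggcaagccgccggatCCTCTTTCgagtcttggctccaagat
Rps12: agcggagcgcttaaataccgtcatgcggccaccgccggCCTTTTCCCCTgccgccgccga
Rps6: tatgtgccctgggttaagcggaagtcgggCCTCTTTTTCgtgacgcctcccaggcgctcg
Rps9: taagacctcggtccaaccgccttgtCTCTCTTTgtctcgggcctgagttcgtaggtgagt
Rps10: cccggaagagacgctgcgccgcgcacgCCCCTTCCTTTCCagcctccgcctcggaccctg
Rpl35: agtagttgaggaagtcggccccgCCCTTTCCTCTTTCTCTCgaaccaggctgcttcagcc

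On GRCm38.p6 these stretches are chrX:74270836-74270865 (plus strand) for *Rpl10*, chr10:128626477-128626536 (minus strand) for *Rps26* and chr10:23787180-23787239 (minus strand) for *Rps12*. *Rps6* is at chr4:86857338-86857397 (minus strand), *Rps9* at chr7:3704011-3704070 (plus strand), *Rps10* at chr17:27635215-27635274 (minus strand) and *Rpl35* at chr2:39005102-39005161 (minus strand). Tracts were 8 bases long in *Rps26* and *Rps9*, 10 in *Rps6*, 11 in *Rps12*, 13 in *Rps10* and 18 in *Rpl35*. A tract was thus present both in genes called lower and in *Rps10* (log2 fold change 0.00) and *Rpl35* (0.13), while the windows of *Rpsa* and *Rplp0*, which both stood at -0.02, held none. The windows of *Rps4x* (-0.39), *Rps13* (-0.35, called lower), *Rpl24* (-0.35), *Rpl23* (-0.24), *Rps3* (-0.22) and *Rps28* (-0.09) held none either. The median log2 fold change was -0.21 over the 48 genes with a tract and -0.23 over the 8 genes without one.

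The comparison of shNAT10 with shNC asked whether the 2 subunits' mRNAs differ when *Nat10* is depleted. Log2 fold changes are differences of mean log2(FPKM + 0.1), shNAT10 minus shNC, which understate the change of genes with low values. A gene was called where the fold change was over 1.2 and the unadjusted limma p was at most 0.05, the threshold that the study used for this data type. Of the 76 genes 20 were called lower and 0 were called higher, 11 of 46 in the large and 9 of 30 in the small subunit. Among all genes tested 7.83% were called lower and 8.41% higher, and among 212 other protein-coding genes with a mean of at least 100 FPKM 18.4% were called lower. No member had an adjusted p under 0.05 by limma, against 88 of the 20116 genes tested and 18 of the 212. An unadjusted limma p under 0.05 was found in 20 members, in 3330 of the 20116 and in 94 of the 212. By limma-voom on recovered fragments 31 members were called lower (all genes 9.34%), among them all 20. An adjusted p under 0.05 by limma-voom was found in 21 of the 76, in 1582 of all genes tested and in 91 of the 212. By these p-values alone the shares in the 212 were above those of the members. In an exact permutation test, 2 libraries against 2 cannot give a two-sided p below 0.3333.

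On the deposited scale the log2 fold change was below 0 for 73 of the 76 genes, with a median of -0.24, whereas with the FPKM total of all genes made equal, which moved the median of all genes to 0.55, it was below 0 for 2 (median 0.35, or -0.19 relative to all genes). Most of that total came from 1 short gene, *Gm23935*, annotated as a miRNA, and directions here are relative to the other genes. It was below 0 for 45 of 46 large-subunit genes, with a median of -0.24 and quartiles of -0.35 and -0.18. It was below 0 for 28 of 30 small-subunit genes, with a median of -0.19 and quartiles of -0.35 and -0.11. Over all genes tested, where the deposited scale sets it near 0, the median was 0.01, and over the 212 other highly expressed genes it was also 0.01. Each shNAT10 library lay below each control library for 47 of the 76 genes, 30 large and 17 small, and above them for 0. Among all genes tested these shares were 24.1% and 23.9%. The medians of the subunits differed by -0.05 (large minus small). Read within each library, the median of the centred log2 values of the large minus that of the small subunit was 0.051 and -0.0025 in the controls against -0.0050 and -0.011 in shNAT10. The group means differed by -0.032, with an SD of 0.037 in shNC and 0.0042 in shNAT10 (exact permutation p = 0.333, two-sided, the smallest this design allows). The difference rested mainly on shNC replicate 1.

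**Figure D1:**
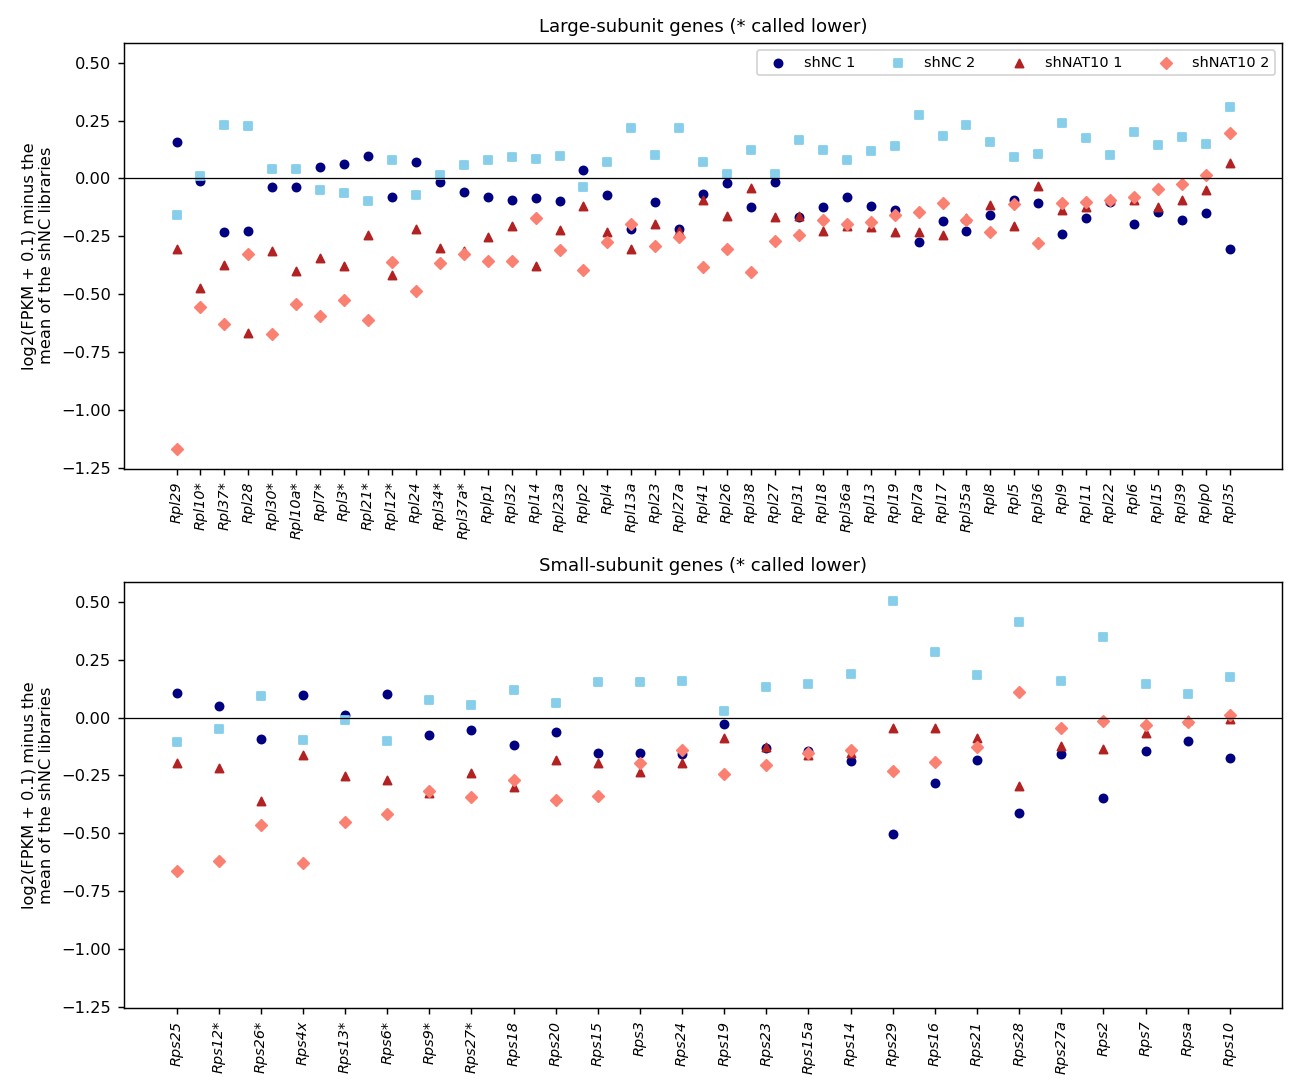
Log2(FPKM + 0.1) of 45 large-subunit genes (top) and 26 small-subunit genes (bottom) in the 4 libraries, as the difference from the gene's mean over the 2 shNC libraries, with genes ordered by log2 fold change and an asterisk on the 16 of these 71 that were called lower. Most points of shNAT10 lie under 0, and the squares of shNC 2 lie above the circles of shNC 1 for 60 of the 71 genes. With the FPKM total of all genes made equal, 2 of the 76 log2 fold changes are below 0.

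The level of the whole family depended strongly on which control library it was read against. The summed FPKM of the large-subunit genes was 19725 and 22891 in the controls against 18381 and 17770 in shNAT10. That of the small-subunit genes was 9552 and 11738 in the controls against 9496 and 9164 in shNAT10. Both sums were thus lower in both shNAT10 libraries, but shNAT10 replicate 1 lay close to shNC replicate 1 for the small subunit. The log2 fold change of the sum was -0.23 for the large and -0.18 for the small subunit, and -0.13 and -0.03 without shNC replicate 2. As a share of the FPKM of all protein-coding genes the large subunit took 9.86% and 10.9% in the controls against 8.86% and 8.71% in shNAT10. The small subunit took 4.78% and 5.57% in the controls against 4.58% and 4.49% in shNAT10.

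Counted as recovered fragments outside the ribosomal RNA loci, the large subunit held 4.43% and 4.99% in the controls against 4.20% and 4.14% in shNAT10. The small subunit held 2.72% and 3.20% in the controls against 2.75% and 2.71% in shNAT10, so that on this scale its groups overlapped. The ratio of the large to the small sum in FPKM was 2.07 and 1.95 in the controls against 1.94 and 1.94 in shNAT10. The ratio of shNC replicate 2 was thus nearer to both shNAT10 libraries than to shNC replicate 1.

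**Figure D2:**
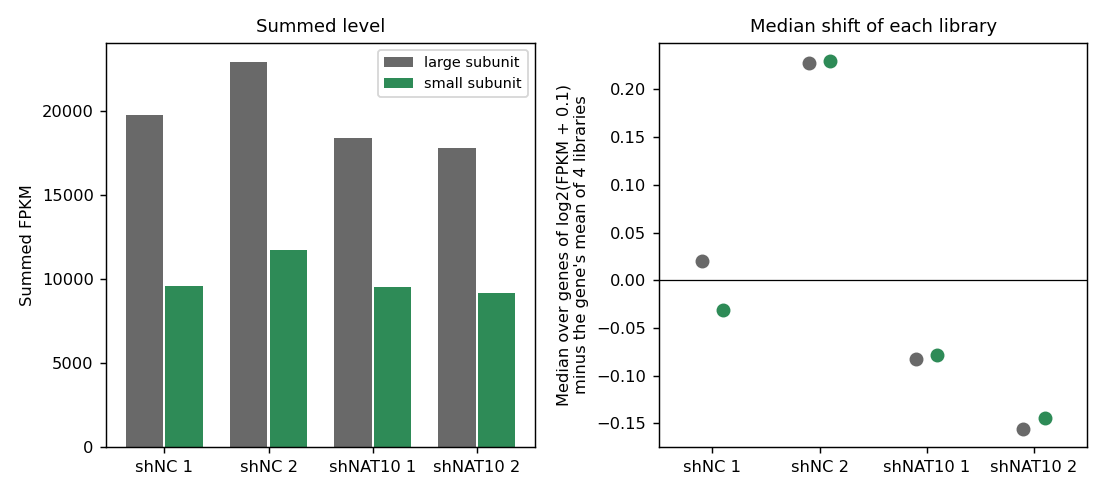
Left, summed FPKM of the large-subunit (grey) and small-subunit genes (green) in each library; right, the median over the genes of log2(FPKM + 0.1) after subtraction of each gene's mean over the 4 libraries. The median of shNC 2 is 0.23 for both subunits, that of shNC 1 is 0.02 and -0.03, and both shNAT10 libraries lie between -0.16 and -0.08, an order that turns when the FPKM total of all genes is made equal (median log2 fold changes 0.35 and 0.40).

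Between the 2 shNC libraries the members differed by a median of 0.21 on the log2 scale, with 64 genes higher in replicate 2. All genes tested had a median difference of 0.00, which the deposited scale itself sets near 0. Between the 2 shNAT10 libraries the median of the members was -0.05, with 44 genes lower in replicate 2. Against shNC replicate 2, all 76 members were lower in each shNAT10 library, with medians of -0.31 and -0.39. Against shNC replicate 1, 50 of 76 were lower in shNAT10 replicate 1 (median -0.10) and 52 of 76 in shNAT10 replicate 2 (median -0.16). These 4 comparisons share libraries. With shNC replicate 2 left out, 7 members (9.21%) were called lower, near the 6.92% of all genes in that fit, and 1 was called higher (*Rpl35*, all genes 8.61%), and 54 were below 0. With shNC replicate 1 left out, 26 (34.2%) were called lower, against 8.25% of all genes, and 76 were below 0. With shNAT10 replicate 1 left out, 15 (19.7%) were called lower, against 4.47% of all genes. With shNAT10 replicate 2 left out, 2 (2.63%) were called, under the 5.01% of all genes. In these last 3 fits 0 members were called higher, against 8.62%, 5.51% and 5.86% of all genes. The share of members called thus stood well above that of all genes in the fits without shNC replicate 1 or shNAT10 replicate 1, and near or below it in the other two. Among the called members, *Rpl10*, *Rpl10a*, *Rpl12*, *Rpl3*, *Rpl34*, *Rps26* and *Rps6* kept the call without shNC replicate 2, and *Rpl10*, *Rpl10a*, *Rpl12*, *Rpl34*, *Rpl37*, *Rpl37a*, *Rps26* and *Rps9* without shNC replicate 1. Without shNAT10 replicate 1 the call was kept by 11 of the 20 (among them *Rpl10*, *Rpl10a*, *Rpl21*, *Rpl3*, *Rpl30*, *Rpl34*, *Rpl7*, *Rps12* and *Rps13*), and without shNAT10 replicate 2 by *Rpl10* and *Rpl34*. In each of these fits the group with 1 library was assumed to vary like the other. In such bulk libraries fewer cells of a type and less RNA per cell cannot be told apart.

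*Rpl10* and *Rpl34* were the 2 members called lower both in the fit of all libraries and in every fit that lacked 1 library. RPL10 (uL16) is added to the large subunit late in its assembly, near the peptidyl transferase centre, and the study went on to follow this gene, so its place here is not independent of that choice. *Rpl10* (ENSMUSG00000008682, chrX:74270812-74273135, plus strand, as annotated in GENCODE M21) had 83.8 and 85.2 FPKM in the controls against 60.8 and 57.5 in shNAT10. The groups were far apart compared with the difference within each. Its log2 fold change was -0.51 (SE 0.08, adjusted p = 0.0935 by limma), and it lay between -0.55 and -0.47 with each library left out. *Rpl34*, a large-subunit protein gene on chromosome 3, had 91.9 and 94.1 FPKM in the controls against 75.4 and 72.2 in shNAT10. Its log2 fold change was -0.33 (SE 0.08, adjusted p = 0.17 by limma), from -0.37 to -0.30 with each library left out. Both genes had shNC values that differed little, unlike most members.

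Other genes of the large subunit were also called lower. RPL3 (uL3) reaches towards the peptidyl transferase centre. *Rpl3* had 266 and 244 FPKM in the controls against 196 and 177 in shNAT10, with a log2 fold change of -0.45 (SE 0.10, adjusted p = 0.161 by limma). *Rpl10a*, whose protein (uL1) forms the flexible stalk at the exit site of tRNA, had 354 and 374 FPKM in the controls against 276 and 250 in shNAT10. Its log2 fold change was -0.47 (SE 0.10, adjusted p = 0.142 by limma). In both genes the groups were separate, and *Rpl10*, *Rpl10a* and *Rpl3* were the 3 members still called without limma's trend of the variance on the level. In that fit the share of members called was 3.95%, under the 6.04% of all genes. *Rpl7* had 515 and 480 FPKM in the controls against 392 and 329 in shNAT10 (log2 fold change -0.47, SE 0.13). *Rpl30*, *Rpl37*, *Rpl21*, *Rpl12* and *Rpl37a* were also called, with log2 fold changes of -0.49, -0.50, -0.43, -0.39 and -0.32. With each library left out these ran from -0.67 to -0.31, from -0.73 to -0.27, from -0.61 to -0.25, from -0.47 to -0.31 and from -0.38 to -0.26. *Rpl37* lost the call with a pseudocount of 1 or 0.01, and *Rpl37* and *Rpl21* lost it without the filter on low values.

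**Figure D3:**
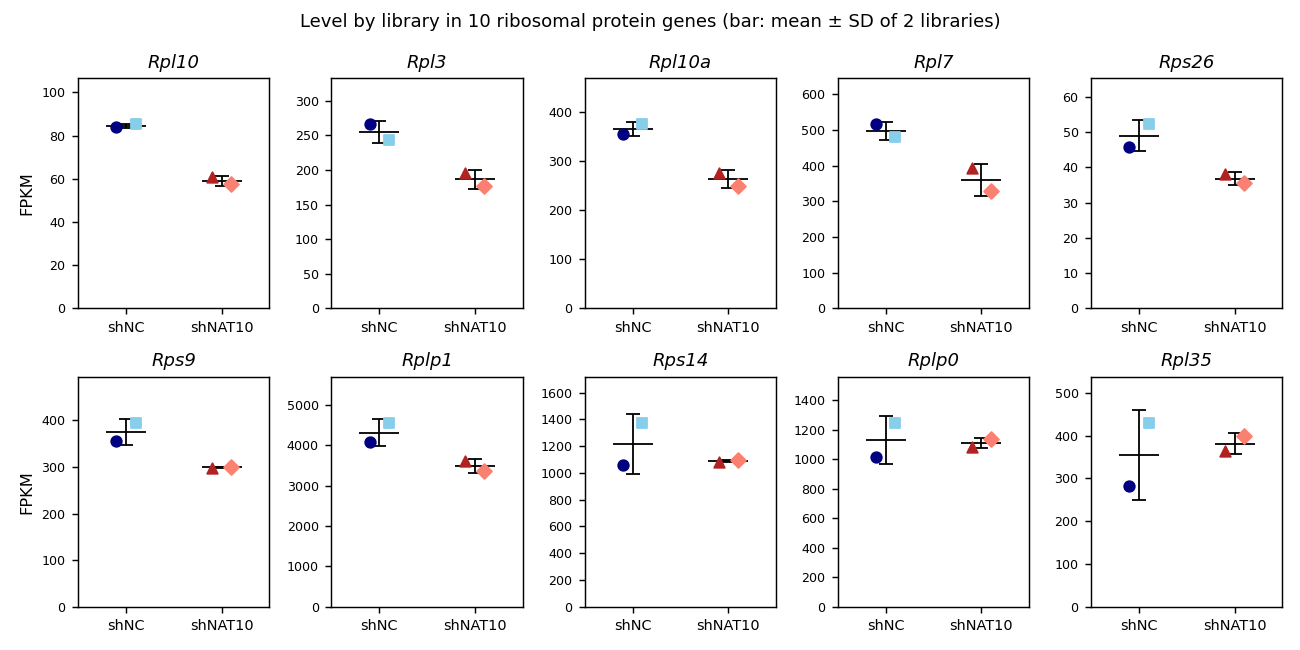
FPKM in each library of 10 members, with shNC in blue and shNAT10 in red and pink, and with the mean ± SD of 2 libraries as black bars. *Rpl10*, *Rpl3*, *Rpl10a* and *Rpl7* show separate groups, and in *Rps14*, *Rplp0* and *Rpl35* both shNAT10 libraries lie between the 2 shNC libraries.

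The acidic stalk recruits the translation factors to the large subunit. Its 4 genes had log2 fold changes of -0.39 for *Rpl12* (called), -0.31 for *Rplp1*, -0.26 for *Rplp2* and -0.02 for *Rplp0*. *Rplp1* was the member with the highest level, at 4071 and 4554 FPKM in the controls against 3609 and 3365 in shNAT10. It missed the limma threshold but had an adjusted p of 0.0138 by limma-voom. *Rplp0*, the base of the stalk, had 1014 and 1248 FPKM in the controls against 1087 and 1137 in shNAT10, so that the shNAT10 values fell between the control values. With near copies added, the values were -0.30, -0.31, -0.25 and -0.10 in the same order. The differences between these 4 genes were not tested.

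*Rpl5* and *Rpl11*, whose proteins form a particle with 5S rRNA that also binds MDM2, were not called. *Rpl5* had 491 and 559 FPKM in the controls against 455 and 485 in shNAT10 (log2 fold change -0.16, SE 0.11). *Rpl11* had 201 and 256 FPKM in the controls against 208 and 212 in shNAT10 (log2 fold change -0.11, SE 0.14). Of 4 genes listed for proteins at the exit tunnel, through which the new peptide leaves, 0 were called, too few genes to read against the 7.83% of all genes. Their log2 fold changes were -0.25 for *Rpl4*, -0.18 for *Rpl17*, -0.09 for *Rpl22* and -0.06 for *Rpl39*. *Rpl35*, which is not in this list and whose protein sits at the tunnel exit, stood at 0.13. *Rpl38*, which is known for its part in the translation of *Hox* mRNAs, had 166 and 197 FPKM in the controls against 176 and 137 in shNAT10, and its groups overlapped (log2 fold change -0.22, SE 0.16).

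In the small subunit, *Rps25* had 40.6 and 35.1 FPKM in the controls against 32.9 and 23.8 in shNAT10 and was not called by limma (log2 fold change -0.43, SE 0.19). *Rps9*, which helps to form the mRNA entry site, had 355 and 395 FPKM in the controls against 298 and 300 in shNAT10 (log2 fold change -0.32, SE 0.10). Its 2 shNAT10 libraries differed by 0.01 on the log2 scale.

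*Rps6*, which encodes the substrate of the S6 kinases, had 103 and 89.8 FPKM in the controls against 79.8 and 72.1 in shNAT10 (log2 fold change -0.34, SE 0.11). *Rps26*, which contacts the mRNA upstream of the start codon, had 45.8 and 52.2 FPKM in the controls against 38.03 and 35.4 in shNAT10 (log2 fold change -0.41, SE 0.10). Among its neighbours at the platform, *Rps14* (-0.15) and *Rps28* (-0.09) were not called, and in both the groups overlapped. *Rps12* (-0.42), *Rps13* (-0.35) and *Rps27* (-0.29) were called as well. With each library left out these ran from -0.62 to -0.22, from -0.45 to -0.25 and from -0.35 to -0.24. Without the filter on low values *Rps12* and *Rps27* lost the call. Other genes for the decoding site and the mRNA entry were not called, with -0.27 for *Rps15*, -0.22 for *Rps3*, -0.17 for *Rps23* and -0.08 for *Rps2*.

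At the upper end of the log2 fold changes, 3 members stood above 0 and none of the 3 was called. *Rpl35*, whose protein sits at the tunnel exit, had 281 and 430 FPKM in the controls against 365 and 398 in shNAT10 (log2 fold change 0.13, SE 0.22). *Rps10* had 125 and 160 FPKM in the controls against 141 and 143 in shNAT10 (0.00, SE 0.14). In *Rpl35* and *Rps10* both shNAT10 values lay between the control values, and the sign turned without shNC replicate 1. *Rpsa*, whose protein is also known as the laminin receptor, stood just below 0 (-0.02), with 614 and 706 FPKM in the controls against 654 and 649 in shNAT10. *Rps27a*, which encodes ubiquitin fused to a ribosomal protein, stood at -0.08, and *Rps29* at -0.14 with 266 and 534 FPKM in its 2 shNC libraries. Of the 4 X-linked members *Rpl10* was called (1 of 4, where 26.3% of the family and 7.83% of all genes were called lower), with *Rps4x* at -0.39, *Rpl36a* at -0.20 and *Rpl39* at -0.06.

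After each library's values were reduced by the median shift of the 76 members, 15 members (19.7%) still had both shNAT10 values under both control values, and 14 (18.4%) had both above. Among all genes tested, reduced by their own median in each library, these shares were 26.2% and 23.6%, so neither count of members exceeded the background. Of those below, 11 were of the large and 4 of the small subunit, and of those above, 7 were of each. By this measure *Rpl10* stood at 0.23 and 0.04 in shNC and at -0.14 and -0.14 in shNAT10. *Rplp0* stood at -0.16 and -0.07 in shNC and at 0.04 and 0.18 in shNAT10, and *Rpsa* at -0.11 and -0.12 against 0.08 and 0.14.

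The levels of the members were uneven, although the ribosome holds most of these proteins in equal number. Mean FPKM, which is per length, ran from 1.53 for *Rpl24* and 2.85 for *Rpl29* to 3900 for *Rplp1*, a ratio of 2546 between the ends. The median was 310 FPKM over all members, 312 in the large and 201 in the small subunit. Of the 76, 2 were under 10 FPKM, 20 were under 100 FPKM and 7 were at 1000 FPKM or more. Across the 76 genes the log2 fold change was less negative at higher levels (Pearson's r = 0.43, Spearman's rho = 0.35), a description over genes that share libraries. It showed little relation to the length of the annotated exons (r = 0.06, rho = 0.04).

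**Figure D4:**
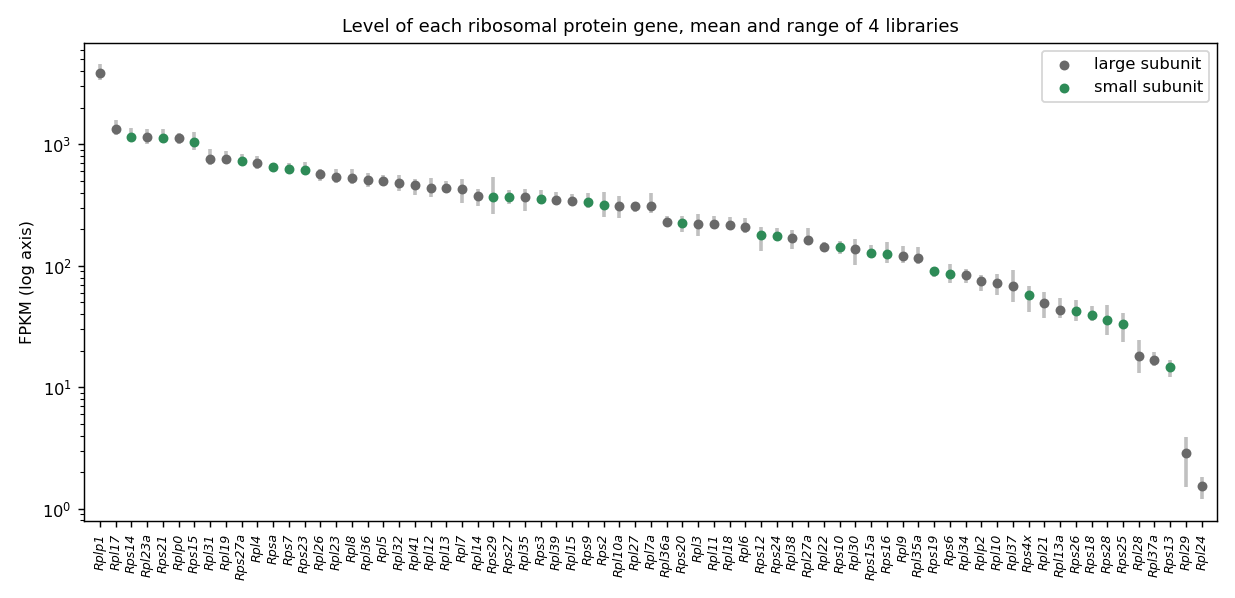
Mean FPKM over the 4 libraries (points, log axis) of 71 members in order of level, with grey lines from the lowest to the highest library and colour by subunit. *Rplp1* stands at the top, and *Rpl29* and *Rpl24* stand apart at the bottom.

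Part of each member's sequence is shared with other annotated genes, most of them pseudogenes. Of the 50-base stretches in the protein-coding transcripts of a member, a median of 38.4% was found exactly in another gene, from 0% to 95.1% in *Rpl35*. At least 1 stretch was shared in 75 of the 76 members and more than 50% of stretches in 26. A near copy, a gene with at least 20% of the member's stretches, was found for 57 members. How the deposited values treat fragments that match several places is not given in the sources used here, so the level of such a gene is uncertain. *Rpl10* shared 73.7% of its stretches and had 8 near copies, but 99.2% of the fragments of this group were assigned to *Rpl10* itself.

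In 3 members under 50% of the fragments of the group were assigned to the member. *Rps18* had 39.9 and 47.0 FPKM in shNC, whereas its near copy *Gm10260* had 653 and 749 FPKM, and *Rps18* held 8.62% of the fragments of its group. *Rpl29* held 6.11% and *Rpl24* 43.2%. *Rpl29* alone had 3.93 and 3.14 FPKM in the controls against 2.83 and 1.51 in shNAT10 and was not called. With near copies added, the log2 fold change of *Rpl29* moved from -0.74 to -0.14 and that of *Rps18* from -0.29 to -0.26, while that of *Rpl24*, which rests on 80 fragments, moved away from 0, from -0.35 to -0.46. *Rplp0* had a copy, *Gm8730*, with 1296 and 1546 FPKM in the controls against 1192 and 1254 in shNAT10, and the summed log2 fold change was -0.10 in place of -0.02. *Rpsa* had *Rpsa-ps10* with 1372 and 1499 FPKM in the controls against 1101 and 1108 in shNAT10, and the sum gave -0.14 in place of -0.02. In both of these genes, which stood near 0 alone, the copy was lower in each shNAT10 library than in each control. Other copies stood the other way. *Rpl12* had *Gm11425* with 228 and 262 FPKM in the controls against 292 and 312 in shNAT10, and *Gm9396* with 114 and 147 against 165 and 170, and the sum gave -0.30 in place of -0.39. *Rpl30* had *Gm12191* with 141 and 142 FPKM in the controls against 217 and 154 in shNAT10, and its sum gave -0.42 in place of -0.49. Its copy with the most shared stretches, *AC126028.2* (50.4%), was lower, with 128 and 147 FPKM in the controls against 113 and 84.1 in shNAT10. Of the 36 near copies with a mean of at least 10 FPKM, 16 (44.4%) had both shNAT10 values under both control values and 5 (13.9%) had both above, where all genes tested had 24.1% and 23.9%.

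The family as a whole hardly moved when the copies were added. The median log2 fold change with near copies was -0.24 for the large and -0.19 for the small subunit, and 73 of 76 groups were below 0. Over the 31 members with at most 33.3% of shared stretches the median was -0.22, with 7 called lower (all genes 7.83%) and 30 below 0. Over the 45 with more, it was -0.25, with 13 called lower. Across the 76 genes the share of shared stretches went with neither the log2 fold change (r = -0.03, rho = -0.09) nor the level (r = -0.02, rho = 0.03).

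**Figure D5:**
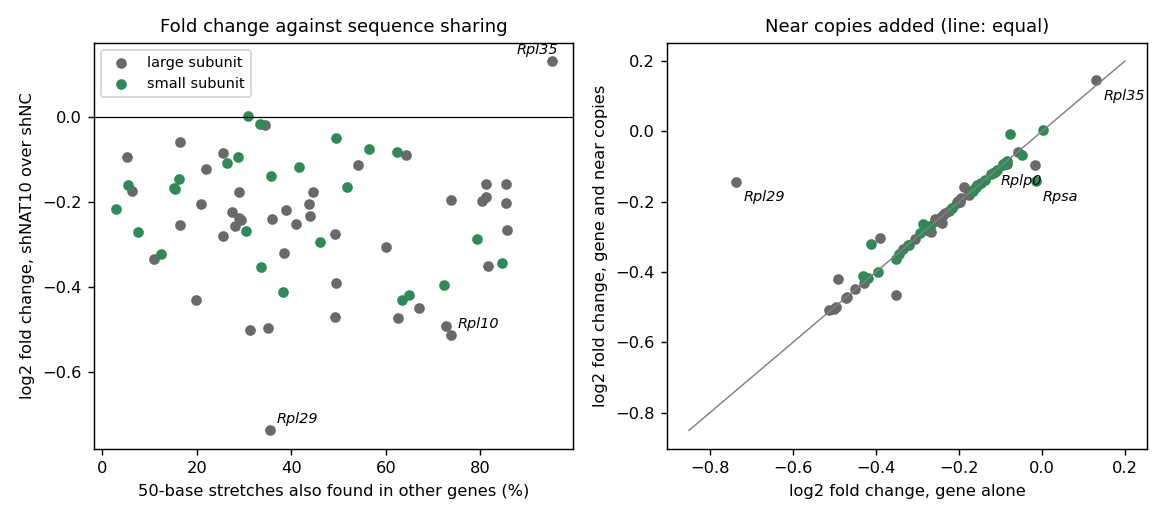
Left, log2 fold change of 71 members against the percentage of their 50-base stretches found in other annotated genes; right, log2 fold change of the member with its near copies against that of the member alone, with the line of equal values. *Rpl29* at -0.74 alone and -0.14 with copies is the point farthest from the line.

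Ribosomal protein genes outside the name rule gave mixed values. *Fau*, which encodes a ubiquitin-like protein fused to RPS30, was called lower, with 511 and 540 FPKM in the controls against 411 and 392 in shNAT10 (log2 fold change -0.39, SE 0.10). *Rps3a1* had 913 and 724 FPKM in the controls against 746 and 555 in shNAT10, and its groups overlapped. *Rpl22l1*, a relative of *Rpl22*, was called lower at -0.72, while *Rps27l*, a relative of *Rps27* and a known target of p53, was called higher at 0.31. *Rpl10l*, *Rpl39l* and *Rps4l* were listed at 0 in all libraries.

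Other mRNAs known to carry the oligopyrimidine tract were lower in part. Of 19 such genes 16 were below 0, with a median of -0.17, and 5 (26.3%, all genes 7.83%) were called lower and 0 higher (all genes 8.41%). The called genes were *Hnrnpa1* (-0.60), *Btf3* (-0.37), *Eef2* (-0.33), *Naca* (-0.31) and *Eif3h* (-0.27). *Eef2*, the translocase of elongation, had 1169 and 1245 FPKM in the controls against 929 and 989 in shNAT10. *Eef1a1* (-0.28), which delivers aminoacyl-tRNA, had separate groups but was not called by limma, and *Tpt1* (-0.05) and *Rack1* (-0.12) had overlapping groups.

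Assembly factors and mitochondrial ribosomal proteins were called in both directions. Of 11 genes for chaperones and factors of late large-subunit assembly 1 was called lower and 2 higher, with a median of -0.01. *Aamp*, the homologue of the yeast chaperone of RPL10, was called lower at -0.41, and *Nmd3*, the export adaptor of the large subunit, was called higher at 0.30. *Heatr3*, which serves the import of RPL5, was called higher at 0.33. Of 7 tested genes of late small-subunit assembly *Ltv1* (-0.64) and *Pno1* (-0.43) were called lower and *Bysl* (0.52) higher. The 77 tested mitochondrial ribosomal protein genes had a median of 0.07, with 34 below 0. Of these, 6 (7.79%) were called lower and 7 (9.09%) higher, shares near the 7.83% and 8.41% of all genes tested. The shorter lists hold too few genes for their shares to be read against these.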

How the data were processed

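Total RNA of FGSCs was depleted of rRNA, made into libraries and sequenced as 150-base read pairs, per the study's methods; the labels describe an mRNA isolation instead, and the records differ. The authors aligned reads with HISAT2 (mm10, per the processing notes, which also name cutadapt and DESeq2). The counting program and annotation are not given in the sources used here. The authors deposited FPKM values for 53465 genes in 4 libraries. Columns with the authors' own comparison hold fold changes and p-values and were not used. No column of a single library was left out.

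Differences were tested with limma 3.58.1 (R 4.3.3, variance trend, two-sided) on log2(FPKM + 0.1) over 20116 genes with a mean of at least 0.1 FPKM, adjusted by Benjamini-Hochberg over all of them. Genes were called at p of at most 0.05, unadjusted, and a change of more than 1.2-fold. Fragments were recovered from FPKM and exon lengths of GENCODE M21: 96.0% to 96.6% of values under 50 fragments came out whole within 0.02. They were used for limma-voom and for depth. The loci treated as related to ribosomal RNA were *Gm42418*, *CT010467.1*, *Gm26917*, *Gm15564*, *AY036118* and *Gm23935*. Shared 50-base stretches were counted exactly over M21 transcripts, and promoters were taken from RefSeq. The fits were tested on simulated data.

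The members, the lists and the tests were chosen with earlier results of these data known. Genes were named by their role in the ribosome, by being called, or as the 3 lowest and 3 highest of each subunit, and other named genes were chosen after their values were seen. Some members are counted in the family, but their own values are not reported here. Alternatives were the pseudocount, the filter, the scaling, the trend, a replicate block, each library left out and limma-voom. Added after seeing the data were near copies, the low-sharing members, the FPKM total of all genes and scaling per fragment outside ribosomal RNA loci. The replicate numbers were not taken to pair the libraries, since the deviations of same-numbered libraries had a correlation of -0.0017 over 12138 genes.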

Additional observations from a re-analysis of the deposited data

How the results depend on the processing

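Of the counts and medians 139 values under the alternatives stayed within their limits (1.5 times a count, 1 SD of a median between libraries), 22 moved and 5 turned sign. Part of the 139 could not move. Median-ratio rescaling used the same factor, 1.00441, in all 4 libraries. The filter, the trend and the replicate block cannot change the medians, the sums or the number of members below 0, and the pseudocount cannot change the sums. Called-lower counts of the family (20, with 11 large and 9 small) were 31 (17 and 14) by limma-voom (all genes 9.34%), 3 (3 and 0, or 3.95% of members, under the 6.04% of all genes) without the variance trend, and 26 (17 large) under quantile normalization (all genes 7.90%). With the replicate block 23 were called (all genes 7.59%), 18 of them among the 20. The block cannot change a direction in this balanced design. When 1 library at a time was left out, the counts ran from 2 to 26 for the family, from 2 to 17 for the large and from 0 to 9 for the small subunit, called-higher counts from 0 to 1, and genes below 0 from 54 to 76. The medians ran from -0.35 to -0.15 (large), from -0.34 to -0.090 (small) and from -0.35 to -0.13 (all). The sums ran from -0.34 to -0.13 (large) and from -0.33 to -0.03 (small).

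Scaled to the same FPKM total of all genes, which the short gene *Gm23935* dominates, the median of all genes rose to 0.55. The medians were 0.35 (large), 0.40 (small) and 0.35 (all), the sums 0.36 and 0.41, with 2 genes below 0 and 0 called lower in the family and in each subunit (all genes 0.90%). Relative to the median of all genes they were -0.20, -0.15 and -0.19, *Rplp0* stood at 0.024 and *Rpsa* at 0.026, and without that adjustment 40 of 41 named genes were above 0. Scaled per fragment outside the ribosomal RNA loci, 14 (18.4%, all genes 6.11%) were called lower and the medians were -0.18 and -0.13, with *Rpl39* (0.00062), *Rplp0* (0.041) and *Rpsa* (0.043) above 0.

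Other sign changes were in genes that were not called. *Rps10* stood at -0.00023 with the protein-coding total, and under quantile normalization it stood at -0.046 and *Rplp0* at 0.075. With 1 library left out, the values ran from -0.29 to 0.061 for *Rpl11*, from -0.36 to 0.0074 for *Rpl17*, from -0.20 to 0.0085 for *Rpl22*, from -0.24 to 0.12 for *Rpl39*, from -0.17 to 0.13 for *Rplp0* and from -0.34 to 0.044 for *Rps14*. They ran from -0.42 to 0.27 for *Rps2*, from -0.24 to 0.073 for *Rps27a*, from -0.50 to 0.32 for *Rps28*, from -0.64 to 0.36 for *Rps29* and from -0.12 to 0.085 for *Rpsa*, with the highest value in each of these 11 genes without shNC replicate 2. For *Rpl35* (-0.17 to 0.44) and *Rps10* (-0.17 to 0.18) the lowest value came without shNC replicate 1. The cause was not tested. The 2 members under 10 FPKM rest on 80 fragments (*Rpl24*) and 160 fragments (*Rpl29*).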
